A study of Mus musculus with 13 samples.

Results

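The open chromatin of 8 genes for renal potassium and chloride channels was examined in nuclei of mouse kidney: Kcnj1, Kcnj10, Kcnj15, Kcnj16, Kcnma1, Kcnq1, Bsnd and Cftr, of 55450 annotated genes. Their peaks, the stretches of open chromatin listed for the whole data set, were those that overlapped the gene body or the 2 kb upstream of it (mm10, GENCODE release M21), which gave 274 of 300755 peaks. Single nuclei ATAC-seq (snATAC-seq), in which a transposase cuts accessible DNA in each nucleus, was carried out on mouse kidney in 2 samples at postnatal day 0 (P0), 1 at 3 weeks (P21) and 2 at 8 weeks (P56). The P21 and P56 samples together formed the adult group, as in the study. The labels name the youngest group P0, whereas the protocol describes mice 1 day old. The labels give no genotype, strain, sex, treatment or number of pooled animals for these samples. Nothing says that samples of a stage came from separate litters, so each test measures the spread between these samples, which may in part be technical.

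The tubule of the nephron reclaims salt and water in its proximal convoluted and straight segments (PCT and PST), the loop of Henle (LOH), the distal convoluted tubule (DCT) and the connecting tubule (CNT), and the collecting duct holds principal cells (PC) and intercalated cells (IC). Potassium channels of the apical membrane recycle or secrete potassium, those of the basolateral membrane set the membrane voltage, and chloride leaves the cell through basolateral channels. Inherited defects of ROMK, the product of Kcnj1, or of barttin, the product of Bsnd, cause salt wasting known as Bartter syndrome, and defects of the channel encoded by Kcnj10 cause a related loss of salt from the distal tubule. Open chromatin shows where regulatory DNA is accessible, and is not a measure of mRNA or of channel activity.

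Of 28316 nuclei, 664 lay in 2 clusters outside the 13 main ones and were not used. Besides the tubule segments the 13 clusters held nephron progenitors (NP), podocytes (Podo), endothelial cells (Endo), immune cells (Immune) and 2 stromal clusters (Stroma 1 and Stroma 2). The samples held 16980853 to 43794155 open calls, an open call being a nucleus with a fragment in a peak. The median nucleus of the P0 samples had 6203 and 6737 open peaks, that of the P21 sample 4153 and those of the P56 samples 3371 and 6178, so raw shares of open nuclei rest in part on depth. For that reason the thinned share, the share expected after each nucleus is reduced to 1000 open peaks (76 to 250 shallower nuclei per sample were left out), and the open calls of a gene or peak per 1000000 open calls of its cell type and sample (CPM) are given beside raw shares. Of 20 marker genes, 19 had the highest CPM in the cell type they are known for, and the exception was Cited1, a marker of NP, which was led by Podo. Pairs of samples shared between 24 and 73 cell barcodes, and sums of a sample and cell type held 39 to 2459 nuclei. The adult NP cluster held 52, 90 and 53 nuclei per sample, and that of P0 1032 and 1005. The paper describes NP as enriched at P0, and places the end of nephron formation at around P21. Whether the adult nuclei of this cluster are progenitors was not tested, so its stage differences may not lie within a single cell type.

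The gene windows differed in length and number of peaks. Kcnj1 (ENSMUSG00000041248.9, chr9:32372493-32399197, plus strand, 26.7 kb) held 11 peaks. Kcnj10 (ENSMUSG00000044708.5, chr1:172341210-172374085, plus strand, 32.9 kb) held 10 peaks. Kcnj15 (ENSMUSG00000062609.14, chr16:95257558-95300260, plus strand, 42.7 kb) held 18 peaks, and all 18 also lay in the window of the predicted gene Gm31641. Kcnj16 (ENSMUSG00000051497.15, chr11:110968033-111027968, plus strand, 59.9 kb) held 10 peaks. Kcnma1 (ENSMUSG00000063142.15, chr14:23289431-24014491, minus strand, 725 kb) held 120 peaks, of which 6 lay in another gene window. Kcnq1 (ENSMUSG00000009545.14, chr7:143106362-143427042, plus strand, 321 kb) held 83 peaks, of which 37 were shared with other windows, among them that of the antisense transcript Kcnq1ot1. Open chromatin carries no strand, so peaks of overlapping genes cannot be assigned to one of them. Bsnd (ENSMUSG00000025418.7, chr4:106483456-106492283, minus strand, 8.83 kb) held 5 peaks. Cftr (ENSMUSG00000041301.15, chr6:18170687-18322768, plus strand, 152 kb) held 17 peaks. Of the 274 peaks, 245 (89.4%) were intronic, 13 covered an annotated transcript start, 9 a coding exon, 4 an untranslated exon, 1 a non-coding exon and 2 were upstream only.

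Stretches of 150 bases are shown for 7 intronic peaks on which the results below turn. Each peak had, within its gene, the largest adult gap in open share between the leading and the second cell type, or the smallest adjusted p between stages. The stretches were read from GRCm38 (mm10), plus strand, and are named by the distance of the peak centre from the start of the gene. Capitals mark matches to GCCNNNGGC, the core bound by TFAP2 factors, or to TGTTTAC, the core bound by FOX factors, on either strand. Stretches without capitals held none of the 8 motifs searched. Each stretch was placed within its peak to hold as many motif matches as possible, so the stretches do not show how common the motifs are.
Kcnj10 peak at +9.4 kb, chr1:172350524-172350673: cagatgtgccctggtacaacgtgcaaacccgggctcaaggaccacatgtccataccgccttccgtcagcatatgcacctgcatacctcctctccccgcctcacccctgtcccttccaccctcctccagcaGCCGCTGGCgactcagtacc
Kcnj16 peak at +10.9 kb, chr11:110978851-110979000: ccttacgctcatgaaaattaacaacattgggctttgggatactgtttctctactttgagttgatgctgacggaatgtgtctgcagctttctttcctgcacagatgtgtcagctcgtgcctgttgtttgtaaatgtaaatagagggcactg
Kcnj16 peak at +25.9 kb, chr11:110993823-110993972: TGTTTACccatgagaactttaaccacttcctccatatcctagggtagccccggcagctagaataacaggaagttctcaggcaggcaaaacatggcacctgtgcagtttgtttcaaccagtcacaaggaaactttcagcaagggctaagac
Kcnj15 peak at +5.4 kb, chr16:95262914-95263063: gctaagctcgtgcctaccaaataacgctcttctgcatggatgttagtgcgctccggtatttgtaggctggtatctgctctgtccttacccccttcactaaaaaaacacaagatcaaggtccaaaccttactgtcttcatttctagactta
Kcnma1 peak at +182.9 kb, chr14:23831494-23831643: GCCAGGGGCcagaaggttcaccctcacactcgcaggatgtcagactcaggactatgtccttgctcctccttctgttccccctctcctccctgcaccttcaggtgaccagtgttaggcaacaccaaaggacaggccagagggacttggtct
Kcnma1 peak at +635.7 kb, chr14:23378816-23378965: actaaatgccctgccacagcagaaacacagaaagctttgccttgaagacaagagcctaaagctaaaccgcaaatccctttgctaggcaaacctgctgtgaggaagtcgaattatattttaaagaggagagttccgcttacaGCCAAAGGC
Cftr peak at +144.0 kb, chr6:18314576-18314725: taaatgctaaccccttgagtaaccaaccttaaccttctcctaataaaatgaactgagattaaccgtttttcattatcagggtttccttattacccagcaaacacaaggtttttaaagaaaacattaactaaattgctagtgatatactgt

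The distribution of each gene over cell types is described by the mean, over its peaks, of the percentage of nuclei with the peak open. Clusters were made from the same open chromatin, so cell types were not tested against each other, and only means, SD over samples (n = 2 at P0, n = 3 in adult) and overlap of samples are given. Kcnj10 was most open in segments from LOH to the collecting duct, Kcnj1 in LOH, DCT, CNT and PC, and Bsnd in LOH, DCT, CNT and IC. Kcnj15 and Cftr were most open in the proximal tubule, and Kcnj16 in both proximal and later segments. Kcnma1 was led by stroma and PST, and Kcnq1 varied least between cell types.

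Kcnj1 encodes ROMK, the apical channel through which LOH cells recycle and the distal nephron secretes potassium. At P0 its mean share was highest in DCT (6.84% ± 0.657), above LOH (3.80% ± 0.449), PC (3.33% ± 0.399) and CNT (3.20% ± 0.435), and the latter 3 overlapped in order. In adult kidney CNT (7.16% ± 2.61), DCT (6.61% ± 2.57) and LOH (6.31% ± 1.84) overlapped one another, followed by PC (4.11% ± 2.27). IC had 1.63% ± 0.798 in adult, and the remaining 8 cell types lay between 0.323% in PCT and 0.972% in Stroma 2. After thinning, the adult order of the first 3 was LOH (1.72%), DCT (1.63%) and CNT (1.59%), which differed by less than the spread of the samples.

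Kcnj10 encodes a basolateral inwardly rectifying potassium channel of the distal tubule, and Kcnj16 the subunit that joins it in a heteromeric channel. Kcnj10 was most open in DCT and CNT at both stages, with 10.0% ± 0.263 and 9.58% ± 1.29 at P0 and 9.35% ± 3.66 and 9.23% ± 3.39 in adult, and these neighbours overlapped. LOH (6.62% ± 0.360), PC (6.49% ± 0.524) and IC (5.93% ± 0.960) followed at P0, also with overlap, and the order was the same in adult (4.93%, 4.31% and 3.71%). The lowest adult levels were in Podo (0.745% ± 0.0971) and Endo (0.498% ± 0.105). Kcnj16 was led by DCT at P0 (6.73% ± 0.649), above CNT (5.02% ± 1.02) and PST (4.59% ± 0.702). In adult PST (6.42% ± 2.87), CNT (6.32% ± 2.55), PCT (5.44% ± 2.09), DCT (5.42% ± 1.95), PC (5.33% ± 1.85) and LOH (4.68% ± 1.29) all overlapped their neighbours. Thinning placed CNT (1.43%) and DCT (1.33%) before LOH (1.26%), PC (1.13%), PCT (0.890%) and PST (0.838%), so the adult lead of PST in raw share was not kept in thinned share. At P0 thinning kept DCT (1.01%) and CNT (0.750%) in the lead, but placed PCT (0.715%) next and PST (0.456%) at rank 8.

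Bsnd encodes barttin, an accessory subunit of basolateral chloride channels. At P0 DCT (16% ± 0.730) and IC (15.7% ± 0.455) overlapped and stood above LOH (8.46% ± 1.27), CNT (7.17% ± 0.502) and PST (6.59% ± 0.225), none of which overlapped its neighbour. The adult order was IC (15.9% ± 6.28), CNT (13.4% ± 4.85), DCT (12.1% ± 4.93) and LOH (10.9% ± 4.70), and all 4 overlapped. The proximal segments had 2.29% ± 1.31 in PST, in the middle of the order, and 0.569% ± 0.175 in PCT, where among the 13 clusters only Endo had a lower mean. PC, which lies beside IC in the collecting duct, had 3.23% ± 0.194 at P0 and 2.41% ± 1.42 in adult.

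Kcnj15 encodes an inwardly rectifying channel of the basolateral membrane of the proximal tubule. PCT (5.06% ± 1.30) and PST (4.77% ± 0.923) led at P0, above CNT (2.01% ± 0.343). In adult the gap widened, with 8.75% ± 2.99 in PCT and 7.05% ± 1.93 in PST against 1.66% ± 0.890 in the next cell type, NP. Cftr, a chloride channel opened by cyclic AMP signalling, was also led by PST (2.65% ± 0.259) and PCT (2.49% ± 0.951) at P0 and by PCT (1.88% ± 0.307) and PST (1.79% ± 0.277) in adult, and the pair overlapped at both stages. PC followed in adult at 0.549% ± 0.251, and LOH, which ranked after the proximal segments at P0 (1.58% ± 0.0489), fell to 0.256% ± 0.103 in adult as a raw share. In thinned share of Cftr, PCT (0.350%) stood before PST (0.306%) at P0, and PC (0.0832%) had rank 5 in adult.

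Kcnma1 encodes the pore of the BK channel, which secretes potassium when flow rises and is also known from smooth muscle. Stroma 2 (2.22% ± 0.163), PST (2.20% ± 0.264) and NP (1.77% ± 0.366) led at P0 with overlap. In adult PST (1.74% ± 0.706) and PCT (1.08% ± 0.131) led, followed by NP (0.659% ± 0.242) and Stroma 2 (0.611% ± 0.0464). In thinned share NP (0.251%) stood before PST (0.242%) at P0. On the same scale Stroma 2 (0.156%) and Stroma 1 (0.137%) stood before NP (0.129%) in adult. Kcnq1 encodes a voltage-gated potassium channel of epithelia and heart. Its levels were close together, from 2.63% ± 0.179 in PC through DCT (2.59% ± 0.409) and CNT (2.46% ± 0.299) to 1.06% ± 0.171 in PCT and 0.588% ± 0.115 in Immune at P0. The adult leaders CNT (2.18% ± 0.708), IC (2.06% ± 0.558) and PC (2.03% ± 0.691) overlapped, and Immune was again lowest (0.364% ± 0.284).

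To compare stages within each cell type, the open calls of each gene were summed per sample and cell type and tested with the quasi-likelihood test of edgeR over all genes of that cell type, 2 P0 against 3 adult samples, with Benjamini-Hochberg adjusted p and a threshold of 0.05. A positive log2 fold change means more open calls in adult after the scaling of edgeR. The printed CPM values do not include that scaling, so a small fold change can differ in sign from them. Kcnq1 in LOH, for example, had 0.04 with a mean CPM of 221 at P0 and 217 in adult. Over 93 tests of the 8 genes in the 13 cell types, 28 were higher in adult and 18 higher at P0, where all genes in all cell types had 11.1% higher in adult and 14.2% higher at P0. In LOH 4 of 8 were higher in adult and 2 at P0 (all genes 22.8% and 29.3%). In PCT 2 of 8 were higher in adult and 2 at P0 (12.8% and 15.6%), and in CNT 5 of 8 and 2 of 8 (9.74% and 15.3%). NP had 3 of 7 higher in adult and 3 of 7 at P0 (18.5% and 21%). No gene passed in IC or in Immune, where 7 and 3 were tested (3 and 0 at an unadjusted p under 0.05, and 0 and 0 called by DESeq2), and in DCT Kcnma1 alone passed, higher at P0. Of other potassium channel genes, 1 of 15 tested passed in IC, 0 of 6 in Immune and 1 of 8 in DCT. The share of all genes called in these clusters is not given, so the few calls are not read as a lack of change. Counted by gene, Kcnj16 was higher in adult in 9 of 13 cell types, Kcnj1 in 6 of 10 and Kcnj15 in 6 of 12, while Kcnma1 was higher at P0 in 9 of 13 and Cftr in 3 of 8. Bsnd was higher in adult in 4 and at P0 in 3 of 12 cell types, Kcnj10 in 2 and 1 of 12, and Kcnq1 in 1 and 1 of 13.

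**Figure D1:**
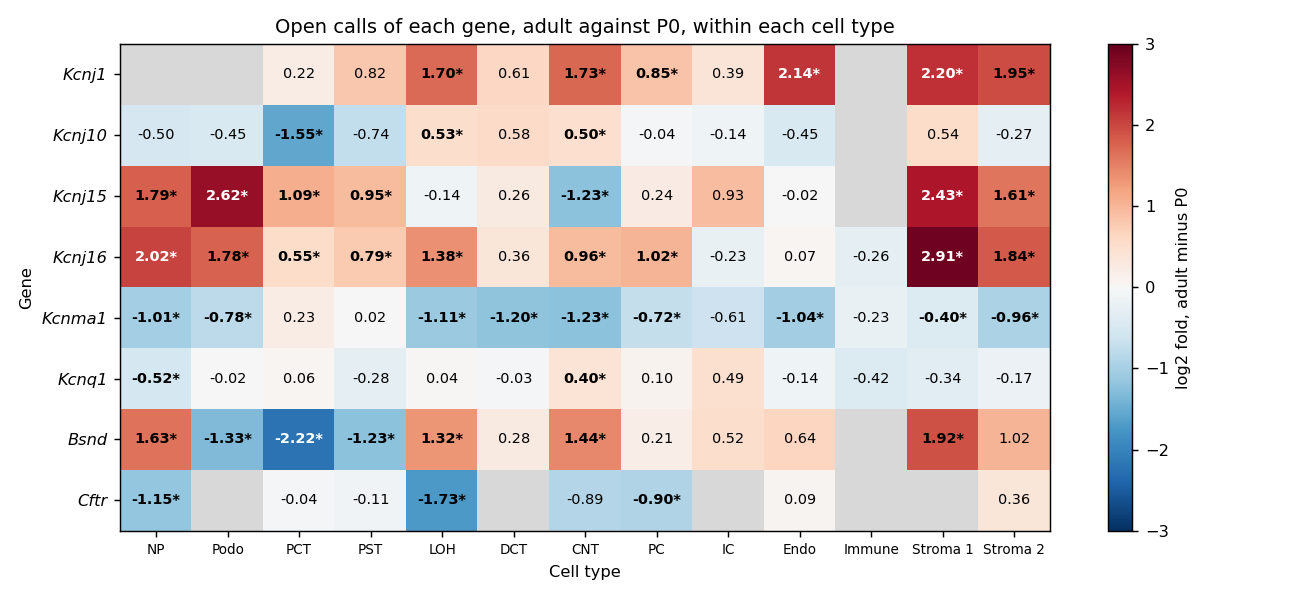
Log2 fold change of open calls per gene, adult minus P0, within each of 13 cell types (columns) for the 8 genes (rows). Asterisks mark edgeR adjusted p below 0.05 and grey cells were not tested. Kcnma1 was called only in the direction of P0 (9 cell types), Kcnj1 and Kcnj16 only in the direction of adult (6 and 9), and Bsnd in both (-2.22 in PCT, 1.44 in CNT).

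These calls depended on the samples at hand. Of the 46, 23 held when each of the 5 samples was left out in turn. Leaving out P0 replicate 1 gave 17 adult and 8 P0 calls, leaving out P0 replicate 2 gave 18 and 11, and with a single P0 sample its spread is assumed to equal that of the adult samples. Without the trimmed mean (TMM) scaling of edgeR the log2 fold changes of genes shifted by -0.17 in LOH, -0.15 in PCT and -0.12 in Endo, and those of peaks by -0.30, -0.24 and -0.15. Only 1 of the 46 calls was lost by that change. After each nucleus was thinned to 1000 open peaks, 9 calls were higher in adult and 12 at P0, so the balance of the calls turned, and 16 of the 46 could not be tested. In LOH, DCT, CNT, PC, IC, Endo, Immune and both stromal clusters each adult sample had a lower median of open peaks per nucleus than either P0 sample, so depth and stage cannot be told apart there.

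Kcnj1 rose in LOH and CNT. In LOH it had 57.3 and 58.5 CPM at P0 and 185, 174 and 181 in adult, without overlap (adult samples are always listed as P21, P56 replicate 1 and P56 replicate 2), a log2 fold change of 1.70 (SE 0.13, adjusted p = 1.3e-05). CNT rose alike, from 49.0 and 49.1 to 160, 162 and 178 (1.73, SE 0.17, adjusted p = 8.5e-06). PC went from 49.3 and 52.1 to 57.0, 97.9 and 110 (0.85, SE 0.18, adjusted p = 0.003), and this call was lost without either P0 sample, without P56 replicate 2 and without the filter on low counts. DCT, which already led at P0, went from 108 and 98.3 to 202, 148 and 166 without overlap, but did not pass (0.61, SE 0.19, adjusted p = 0.076). PCT stayed at 4.19 to 6.93 in all 5 samples (0.22, SE 0.33, adjusted p = 0.65).

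Of the 10 Kcnj1 peaks tested in LOH, 9 were more open in adult (24.4% of all peaks in LOH). The peak at the first annotated start (+0.1 kb, chr9:32372376-32372771) was open in 4.41% and 5.67% of LOH nuclei at P0 and in 13.7%, 7.10% and 17.1% in adult, a log2 fold change of 2.39 (SE 0.28, adjusted p = 1.3e-07). In CNT the same peak went from 1.48% and 3.96% to 12.0%, 10.5% and 28.9% (3.07, SE 0.47, adjusted p = 8.6e-05). A second start at +12.6 kb (chr9:32384648-32385507) was the most open Kcnj1 peak of the adult. It was open in 18.0% and 20.9% of LOH nuclei at P0 and 23.6%, 20% and 34.1% in adult (1.54, SE 0.23, adjusted p = 5.7e-06). Raw shares overlapped between stages here, and adult LOH nuclei held fewer open peaks (medians of 2496 to 4477) than those at P0 (6567 and 7430). Rises and falls of single peaks refer to the log2 fold change of the test, and raw shares overlapped at some other peaks too. Of the peaks between the starts, that at +4.7 kb (chr9:32376828-32377634) rose in LOH, with 7.87% and 10.1% at P0 and 15.2%, 9.12% and 18.1% in adult (1.74, SE 0.25, adjusted p = 2.3e-06), and that at +17.9 kb (chr9:32390173-32390559) from 1.42% and 1.69% to 5.33%, 3.07% and 4.97% (2.58, SE 0.37, adjusted p = 3.1e-06). Another start, at +21.2 kb (chr9:32393231-32394126), was led by PC, with 7.11% and 7.71% at P0 and 6.80%, 8.27% and 9.43% in adult, and did not pass the stage test there (0.69, SE 0.34, adjusted p = 0.12).

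Kcnj10 fell in PCT and rose in LOH and CNT. In PCT it had 63.8 and 50.2 CPM at P0 and 16, 20.4 and 16.5 in adult, a log2 fold change of -1.55 (SE 0.17, adjusted p = 0.00046). In LOH it went from 95.3 and 88.9 to 120, 119 and 140 (0.53, SE 0.14, adjusted p = 0.0077), and in CNT from 133 in both P0 samples to 199, 180 and 206 (0.50, SE 0.15, adjusted p = 0.019). Both rises were lost after thinning and without P0 replicate 2, and that of CNT also without P0 replicate 1 or P56 replicate 2, with DESeq2 and with equal numbers of nuclei. The raw mean share in LOH moved the other way, from 6.62% to 4.93%. DCT had 137 and 138 at P0 and 243, 200 and 219 in adult, without overlap, but did not pass (0.58, SE 0.17, adjusted p = 0.063), and its raw mean share was 10.0% at P0 and 9.35% in adult.

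The intronic Kcnj10 peak at +9.4 kb (chr1:172350087-172351110), whose sequence is given above, was the most open peak of the gene. In PCT it was open in 23.9% and 16.2% of nuclei at P0 and in 2.06%, 2.24% and 4.18% in adult (log2 fold change -2.43, SE 0.25, adjusted p = 4.3e-05). PST fell too, from 34.9% and 31.2% to 7.52%, 5.18% and 20.5% (-1.42, SE 0.31, adjusted p = 0.0095), a call lost without either P0 sample. DCT kept 47.1% and 42.1% at P0 and 42.6%, 22.5% and 56.9% in adult (0.35, SE 0.22, adjusted p = 0.5). Thus the peak was open in proximal and distal segments at P0. In thinned share, a lower scale than the raw shares, DCT had 5.88% at P0 and 9.81% in adult, and PCT had 0.458% in adult. PST still held 5.18% to 20.5% in adult as a raw share. A smaller intronic peak at +5.9 kb (chr1:172346963-172347251) moved in both directions. In PCT it fell from 6.40% and 3.05% to 0.322%, 1.1% and 0.783% (-2.15, SE 0.50, adjusted p = 0.0051), a call lost without P0 replicate 1, and in LOH it rose from 0.630% and 0.92% to 2.03%, 0.960% and 2.76% (2.34, SE 0.52, adjusted p = 0.00046). The peak at +1.9 kb (chr1:172342908-172343283) rose in LOH from 0.787% and 1.69% to 2.79%, 1.63% and 3.98% (2.25, SE 0.44, adjusted p = 0.00012) and in PC by 2.01 (SE 0.64, adjusted p = 0.019), the latter lost without either P0 sample. The start of the gene (chr1:172340815-172341571) behaved differently in Stroma 2, where 9.09% and 9.69% of nuclei were open at P0 and 2.43%, 3.18% and 2.62% in adult (-0.77, SE 0.30, adjusted p = 0.036), a call lost without any 1 of P0 replicate 1, P0 replicate 2, P21 or P56 replicate 2.

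Kcnj16 rose in all segments in which it passed. In LOH it had 47.4 and 51.0 CPM at P0 and 113, 128 and 125 in adult (log2 fold change 1.38, SE 0.15, adjusted p = 4.9e-05). PC went from 47.8 and 54.0 to 97.5, 111 and 108 (1.02, SE 0.14, adjusted p = 9.3e-05), and CNT from 66.1 and 73.0 to 103, 152 and 149 (0.96, SE 0.19, adjusted p = 0.0013), a call lost after thinning. The proximal segments rose by 0.55 in PCT (SE 0.14, adjusted p = 0.016) and 0.79 in PST (SE 0.18, adjusted p = 0.016), and both calls were lost without either P0 sample and after thinning. DCT did not pass (0.36, SE 0.19, adjusted p = 0.32), nor did IC, which had 58.0 and 58.3 at P0 and 65.5, 39.9 and 52.2 in adult (-0.23, SE 0.28, adjusted p = 0.76).

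In LOH all 4 tested Kcnj16 peaks were more open in adult (24.4% of all peaks in LOH). The clearest was the intronic peak at +10.9 kb (chr11:110978483-110979368), with 0.315% and 1.69% of LOH nuclei at P0 and 5.33%, 4.61% and 6.63% in adult (log2 fold change 3.57, SE 0.42, adjusted p = 1.6e-07). The peak at +18.1 kb (chr11:110985688-110986588), over an untranslated exon, was open in 43.1% and 42.1% of DCT nuclei and 40.0% and 42.9% of IC nuclei at P0, and in 26.7%, 19.2% and 40.3% and 27.7%, 11.8% and 22.3% in adult. Neither difference passed (-0.04, SE 0.23, adjusted p = 0.98 in DCT, and -0.64, SE 0.28, adjusted p = 0.41 in IC). In CNT the same peak went from 21.5% and 24.8% to 25.3%, 27.6% and 46.6% (0.92, SE 0.23, adjusted p = 0.006), a call lost without either P0 sample. The peak at the start (chr11:110967190-110968344) was open in both proximal and later segments, with adult means of 18.7% in LOH and 28.3% in PCT. A further intronic peak at +25.9 kb was led by Immune at both stages, with 10.1% and 8.77% of nuclei at P0 and 4.44%, 10.7% and 5.94% in adult, above Endo (1.21% ± 0.126 in adult), and was not tested in Immune because of its low counts.

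**Figure D2:**
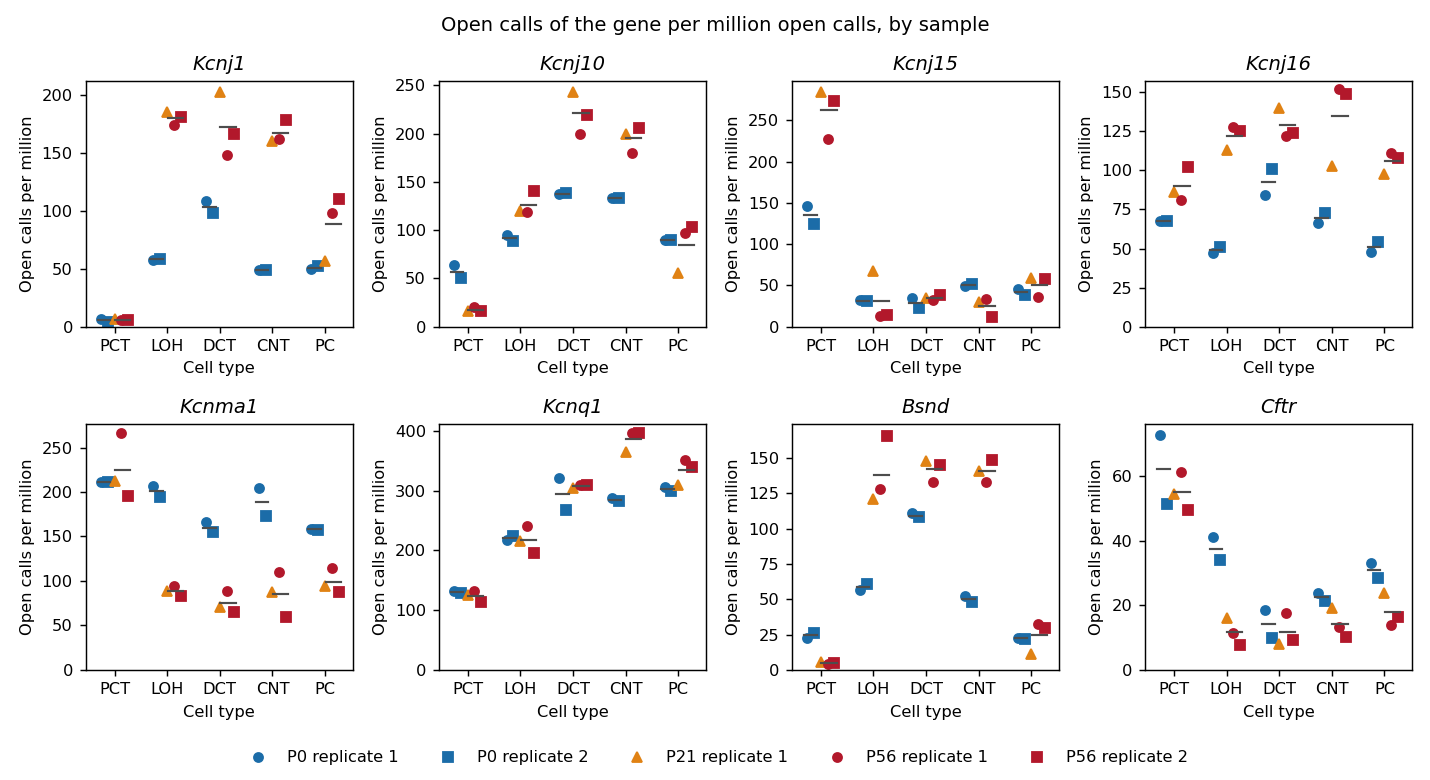
Open calls of each gene per 1000000 open calls of the cell type (CPM), one point per sample (2 P0, 1 P21, 2 P56), in PCT, LOH, DCT, CNT and PC. In LOH the adult points of Kcnj1 (174 to 185) lie above both P0 points (57.3 and 58.5), and in PCT the adult points of Bsnd (4.28 to 5.26) lie below those of P0 (22.5 and 26.3).

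Bsnd changed in opposite directions along the tubule. PCT had 22.5 and 26.3 CPM at P0 and 5.26, 4.28 and 4.74 in adult, a log2 fold change of -2.22 (SE 0.24, adjusted p = 0.00042). PST fell from 33.9 and 36.2 to 16.2, 10.2 and 16.2 (-1.23, SE 0.28, adjusted p = 0.016), a call lost without either P0 sample. LOH rose from 56.6 and 60.5 to 121, 128 and 166 (1.32, SE 0.17, adjusted p = 0.00013), and CNT from 52.4 and 47.9 to 141, 133 and 149 (1.44, SE 0.17, adjusted p = 3.3e-05). No stage of these 4 overlapped the other. In IC the values were 109 and 92.8 at P0 and 177, 116 and 157 in adult, above P0 in 3 of 3 samples, but the test did not pass (0.52, SE 0.21, adjusted p = 0.24).

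The peak over the Bsnd start (chr4:106492193-106492758) carried this pattern. In PCT it was open in 10.6% and 11.7% of nuclei at P0 and in 1.68%, 1.1% and 1.44% in adult (log2 fold change -2.63, SE 0.30, adjusted p = 7.4e-05). In PST it went from 27.7% and 24.1% to 6.39%, 4.87% and 10.2% (-1.64, SE 0.32, adjusted p = 0.0051), which was lost without either P0 sample. LOH rose by 1.5 on the log2 scale (SE 0.25, adjusted p = 1.7e-05), while its raw shares overlapped between stages, with 17.0% and 21.5% at P0 and 21.6%, 16.3% and 38.2% in adult. CNT rose from 14.1% and 12.9% to 25.3%, 15.6% and 35.7% (1.2, SE 0.28, adjusted p = 0.0027), a call lost without P0 replicate 2. IC kept 35.0% and 33.9% at P0 and 47.9%, 19.9% and 41.0% in adult (0.46, SE 0.26, adjusted p = 0.57). At the other end of the gene, the peak at +8.7 kb (chr4:106483211-106483896), over an untranslated exon, rose in LOH from 5.67% and 7.67% to 10.2%, 6.91% and 16.2% (1.83, SE 0.27, adjusted p = 3.7e-06). The intronic peak at +1.4 kb fell in PCT, with 2.56% and 1.8% of nuclei at P0 and 0%, 0.0813% and 0.435% in adult (-3.14, SE 0.68, adjusted p = 0.0037), a call lost without P0 replicate 1.

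Kcnj15 rose in the proximal tubule and fell in CNT. PCT had 146 and 124 CPM at P0 and 284, 227 and 274 in adult (log2 fold change 1.09, SE 0.13, adjusted p = 0.00062). PST went from 98.1 and 83.5 to 192, 170 and 144 (0.95, SE 0.17, adjusted p = 0.0056), a call lost without either P0 sample and after thinning. CNT fell from 49.0 and 51.6 to 29.9, 33.2 and 11.5 (-1.23, SE 0.35, adjusted p = 0.015), which was lost without either P0 sample, without P56 replicate 2 and with DESeq2, and was -1.83 without P56 replicate 1. LOH did not pass (-0.14, SE 0.50, adjusted p = 0.83), but its adult samples were far apart, with 67.2 at P21 and 13 and 14.4 at P56.

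Of 18 Kcnj15 peaks, all tested in PCT, 13 were more open in adult and none at P0 (16.3% and 17.6% of all peaks in PCT). PCT had the highest adult thinned share at 17 of the 18 peaks and PST at the other. The intronic peak at +5.4 kb (chr16:95262576-95263401) was open in 7.13% and 4.31% of PCT nuclei at P0 and in 19.1%, 13% and 22.7% in adult (log2 fold change 2.05, SE 0.24, adjusted p = 8.5e-05). PST went from 0% and 1.79% to 7.14%, 8.07% and 10.9% at this peak (3.32, SE 0.79, adjusted p = 0.013), a call that rested on 2 open P0 nuclei and was lost without either P0 sample. All 18 peaks also lie in another gene window, and a further pair of them rose in PCT. That at +21.8 kb (chr16:95279136-95279540), over a transcript start, went from 2.56% and 1.26% to 9.86%, 5.12% and 9.62% (2.47, SE 0.34, adjusted p = 0.00024), and that at +36.8 kb (chr16:95294181-95294618) from 2.19% and 1.62% to 6.51%, 3.90% and 6.09% (1.90, SE 0.33, adjusted p = 0.0010). The most open peak, at +30.3 kb over an untranslated exon (chr16:95287484-95288241), did not pass in PCT, with 27.6% and 19.0% at P0 and 28.0%, 18.2% and 33.4% in adult (0.56, SE 0.21, adjusted p = 0.052). In CNT it fell from 11.9% and 15.8% to 2.41%, 4.08% and 1.88% (-1.81, SE 0.52, adjusted p = 0.013), lost without either P0 sample and without P56 replicate 2. The peak over the start (chr16:95257464-95258004) rose in PCT from 11.3% and 8.62% to 19.0%, 10.5% and 27.3% (1.26, SE 0.26, adjusted p = 0.0026), a call lost without either P0 sample.

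Cftr fell in LOH, PC and NP. LOH had 41.1 and 33.9 CPM at P0 and 16, 11.3 and 7.53 in adult (log2 fold change -1.73, SE 0.26, adjusted p = 0.00034). PC fell from 33.2 and 28.5 to 23.9, 14.0 and 16.2 (-0.90, SE 0.24, adjusted p = 0.012), a call lost without either P0 sample, without P56 replicate 2, with DESeq2 and with equal numbers of nuclei. NP fell from 35.1 and 34.1 to 21.6, 12.2 and 19.0 (-1.15, SE 0.34, adjusted p = 0.0042), where the adult samples held 5, 4 and 7 open calls, and this call was lost without P56 replicate 1. The proximal segments, where the gene was most open, did not pass, with 72.8 and 51.4 at P0 and 54.3, 61.3 and 49.5 in adult PCT (-0.04, SE 0.17, adjusted p = 0.88) and -0.11 in PST (SE 0.32, adjusted p = 0.86).

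The intronic Cftr peak at +144.0 kb (chr6:18314278-18315023), shown above, was open in 9.13% and 8.13% of LOH nuclei at P0 and in 0.508%, 0.0960% and 0.110% in adult (log2 fold change -4.41, SE 0.53, adjusted p = 2.1e-07). In PC it fell from 6.85% and 6.57% to 0.971%, 0.376% and 0.472% (-3.11, SE 0.66, adjusted p = 0.001), a call lost without P0 replicate 2. The start of the gene (chr6:18170387-18171007) fell in LOH from 5.98% and 6.13% to 0.761%, 0.864% and 1.1% (-1.53, SE 0.39, adjusted p = 0.0017). In PCT the start kept 8.04% and 3.95% at P0 and 6.96%, 4.35% and 6.66% in adult (0.40, SE 0.28, adjusted p = 0.31). The most open Cftr peak of the adult, at +10.5 kb (chr6:18180825-18181498), had 9.32% and 7.72% in PCT at P0 and 10.1%, 8.17% and 13.3% in adult (0.68, SE 0.21, adjusted p = 0.027), a call lost without either P0 sample and without P56 replicate 2. A peak over a coding exon at +150.1 kb (chr6:18320544-18321077) fell in PCT from 4.75% and 2.51% to 0.580%, 0.610% and 0.348% (-2.37, SE 0.48, adjusted p = 0.0023), a call lost without P0 replicate 1. The peak at +25.4 kb (chr6:18195819-18196432) separated the proximal segments, with an adult mean of 6.64% ± 2.57 in PST and 1.40% ± 0.377 in PCT.

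Kcnma1 was more open at P0 in 9 cell types, and in PCT and PST it did not pass (log2 fold change 0.23, SE 0.14, adjusted p = 0.24, and 0.02, SE 0.14, adjusted p = 0.95). LOH fell from 207 and 194 CPM to 88.3, 94.4 and 83.1 (-1.11, SE 0.12, adjusted p = 6.5e-05). Stroma 2 fell from 349 and 357 to 157, 221 and 179 (-0.96, SE 0.15, adjusted p = 0.00039), and CNT from 205 and 173 to 87.0, 110 and 59.9 (-1.23, SE 0.21, adjusted p = 0.00045). DCT (-1.20, SE 0.21, adjusted p = 0.0046) lost its call without either P0 sample and after thinning, PC (-0.72, SE 0.14, adjusted p = 0.0016), Podo (-0.78, SE 0.17, adjusted p = 0.0038) and Endo (-1.04, SE 0.24, adjusted p = 0.0081) without P0 replicate 1, and Stroma 1 (-0.40, SE 0.15, adjusted p = 0.047) without any sample except P56 replicate 1. The call in Podo was also lost with DESeq2 and with equal numbers of nuclei, and that in Stroma 1 with both, after thinning, with the replicate block and with either other way of assigning peaks to genes (the gene body alone, or peaks of no other gene window). NP fell from 291 and 319 to 108, 228 and 152 (-1.01, SE 0.18, adjusted p = 2.3e-06).

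Peaks along Kcnma1, the longest of the 8 genes, were open in different cell types. Most of its 120 peaks had an adult thinned share below 0.5% even in their leading cell type. Among the others PST led 8, Stroma 2 6, PCT 5, NP 4 and Stroma 1 3. A pair of intronic peaks marked the proximal tubule. At +182.9 kb (chr14:23831290-23831976) PST had 30.1% and 38.4% of nuclei open at P0 and 30.1%, 24.4% and 47.3% in adult, and PCT 19.4% and 18.1% and then 11.8%, 14.7% and 21.9%. LOH fell at this peak from 7.24% and 5.67% to 1.78%, 1.44% and 1.22% (log2 fold change -1.02, SE 0.37, adjusted p = 0.022), which was lost without P0 replicate 1 and without P56 replicate 2. At +178.5 kb (chr14:23835579-23836371) LOH fell from 8.82% and 11% to 2.28%, 0.576% and 1.66% (-1.77, SE 0.35, adjusted p = 0.00017), while PST had 24.2% to 42.2% in the 5 samples and did not pass (0.11, SE 0.23, adjusted p = 0.81). In PCT this peak was higher in adult, with 26.7% and 21.4% at P0 and 30.1%, 22.6% and 31.5% in adult (0.61, SE 0.20, adjusted p = 0.030), and so it was in Stroma 2 (0.78, SE 0.27, adjusted p = 0.018), where raw shares overlapped. Both calls were lost without either P0 sample, that of PCT also without P21 and that of Stroma 2 without P56 replicate 1. Farther along, Stroma 2 led the peaks at +491.6 kb, with an adult mean of 13.7% against 1.95% in Stroma 1, and at +512.0 and +520.0 kb, with 5.72% and 5.41%.

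The intronic Kcnma1 peak at +635.7 kb (chr14:23378401-23379132) was seen mostly at P0. In LOH it was open in 7.40% and 8.59% of nuclei at P0 and in 0 of 2341 adult nuclei, which allows a share of up to 0.128%, so that CPM was at least 32.5-fold higher at P0 (with a floor of 3 counts over the adult group, adjusted p = 4.7e-08). In PC it was open in 10.9% and 9.71% at P0 and in 0 of 581 adult nuclei, at least 13.6-fold higher at P0 (adjusted p = 1.6e-05). Over the 13 cell types it was open in 167 and 160 nuclei at P0 and in 1, 4 and 3 nuclei in adult. The peak at +309.7 kb (chr14:23704393-23705223) was open in 7.49% and 7.95% of Stroma 2 nuclei at P0 and in 0%, 0.187% and 0% in adult (log2 fold change -5.28, SE 0.71, adjusted p = 2.2e-06). Over 101 tests of Kcnma1 peaks in the cell types, 39 were higher at P0 and 12 in adult (18.0% and 16% of tests over all peaks). Among those higher in adult was the peak at +24.6 kb (chr14:23989427-23990273), where LOH went from 4.57% and 4.14% to 6.09%, 6.05% and 9.72% (1.89, SE 0.30, adjusted p = 9.3e-06) and PCT from 3.47% and 2.15% to 6.71%, 5.57% and 9.14% (1.72, SE 0.29, adjusted p = 0.00075). At the transcript start at +9.7 kb (chr14:24004090-24005478), which also lies in another gene window, CNT fell from 13.3% and 16.8% to 2.41%, 0.340% and 1.13% (-3.56, SE 0.60, adjusted p = 0.00021) and PC from 8.63% and 9.71% to 1.94%, 0.752% and 0.943% (-2.60, SE 0.51, adjusted p = 0.00052), the latter lost without either P0 sample.

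Kcnq1 changed least between stages at the level of the gene. LOH had 218 and 224 CPM at P0 and 215, 240 and 195 in adult (log2 fold change 0.04, SE 0.13, adjusted p = 0.82). The only rise, in CNT from 287 and 282 to 364, 397 and 397 (0.40, SE 0.14, adjusted p = 0.043), was lost without any sample except P56 replicate 1, after thinning, with DESeq2, with equal numbers of nuclei, without TMM, with DESeq2 size factors and with either other way of assigning peaks. The only fall, in NP (-0.52, SE 0.16, adjusted p = 0.0082), was lost without any sample except P21 and with peaks of no other gene window. Single peaks moved in both directions. The intronic peak at +53.8 kb (chr7:143159757-143160519) fell in LOH from 4.41% and 3.37% to 0.254%, 0% and 0.221% (-3.66, SE 0.67, adjusted p = 6.6e-05), and that at +219.2 kb (chr7:143325065-143325963) from 3.62% and 4.91% to 0.508%, 0.192% and 0.331% (-2.62, SE 0.53, adjusted p = 0.00018). In contrast the peak at +259.4 kb (chr7:143365164-143366265) rose in LOH by 1.56 (SE 0.35, adjusted p = 0.00063), with 2.68% and 3.07% at P0 and 3.05%, 3.93% and 4.09% in adult.

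The peaks of Kcnq1 also fell into sets led by different cell types. The intronic peak at +302.1 kb was led by Endo (adult mean 15.5%), and the peak at +18.2 kb, which lies in another gene window too, by CNT (27.1%) and PC (21.1%). The peak at +190.3 kb (chr7:143296186-143297058), also in another window, was open in all cell types, with thinned shares in adult of 5.26% in Immune and 4.71% in Podo. The start at +1.0 kb (chr7:143106965-143107774) was led by IC in adult (18.2% ± 12.6), where the samples ranged from 6.33% to 31.4% with the deeper P56 sample highest.

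**Figure D3:**
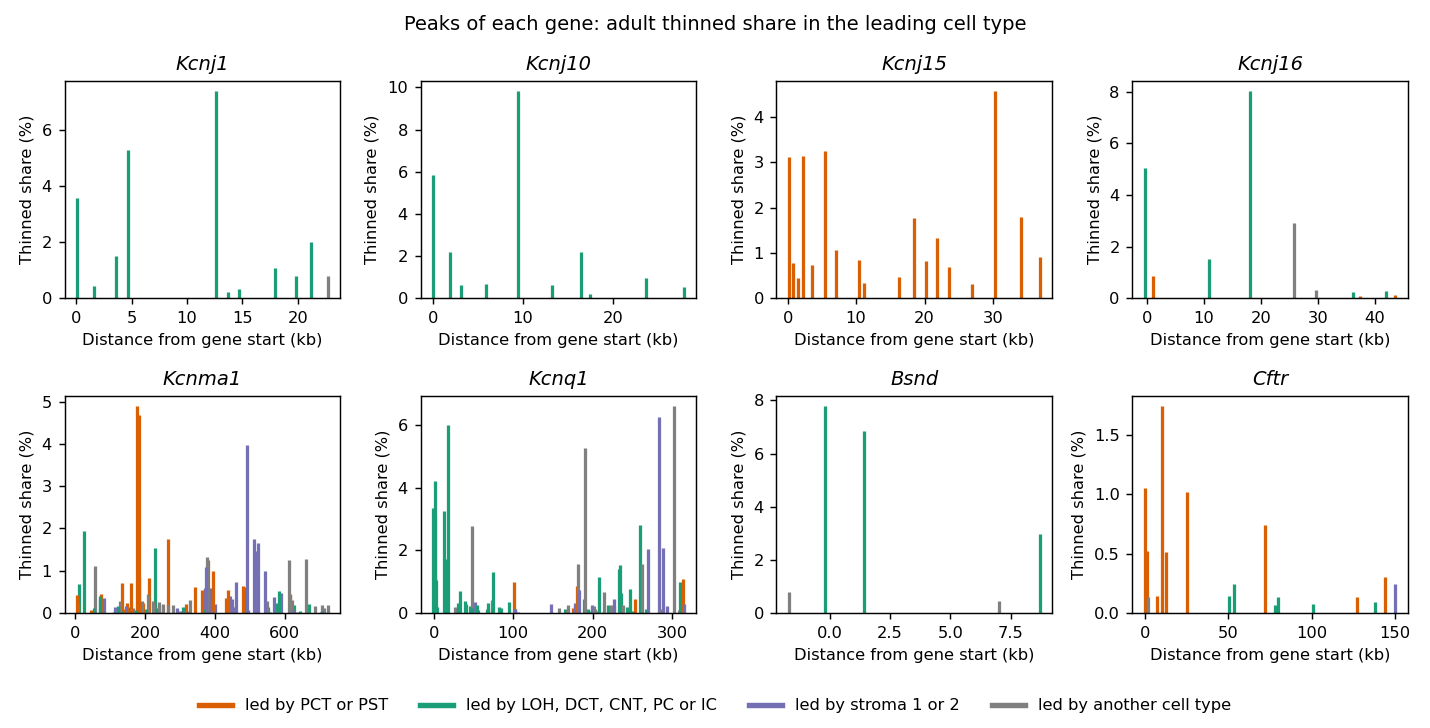
Adult thinned share (%) of each of the 274 peaks in its leading cell type, against the distance of the peak centre from the gene start (kb, in the direction of transcription), one panel per gene, coloured by the group of the leading cell type. Kcnj15 is led by PCT or PST at all 18 peaks, whereas Kcnma1 and Kcnq1 hold peaks of several groups.

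Peaks were tested as genes were, over all peaks of a cell type. Of the 274 peaks, 154 had enough counts in at least 1 cell type, which is a filter that favours peaks open at either stage. Over 373 tests 95 were higher in adult and 69 at P0 (all peaks 16% and 18.0%), and without the filter on low counts 122 and 183, so that the balance turned. LOH had 29 and 19 of 75 tests (24.4% and 29.9% of all peaks), where the median log2 fold change of all peaks was -0.11. PCT had 31 and 19 of 111 (16.3% and 17.6%) and Stroma 2 8 and 15 of 35 (23.7% and 26.5%). By gene, Kcnma1 gave 12 of the 19 LOH peaks and 14 of the 15 Stroma 2 peaks that were higher at P0, Kcnj15 gave 13 of the 31 PCT peaks that were higher in adult, and Kcnj1 gave 9 of the 29 in LOH. Of the peaks tested, Kcnma1 held 18 of 75 in LOH and 20 of 35 in Stroma 2. Kcnj15 held 18 of 111 in PCT and Kcnj1 10 of 75 in LOH. Leaving out P0 replicate 1 left 37 adult and 28 P0 calls, and P0 replicate 2 40 and 35.

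**Figure D4:**
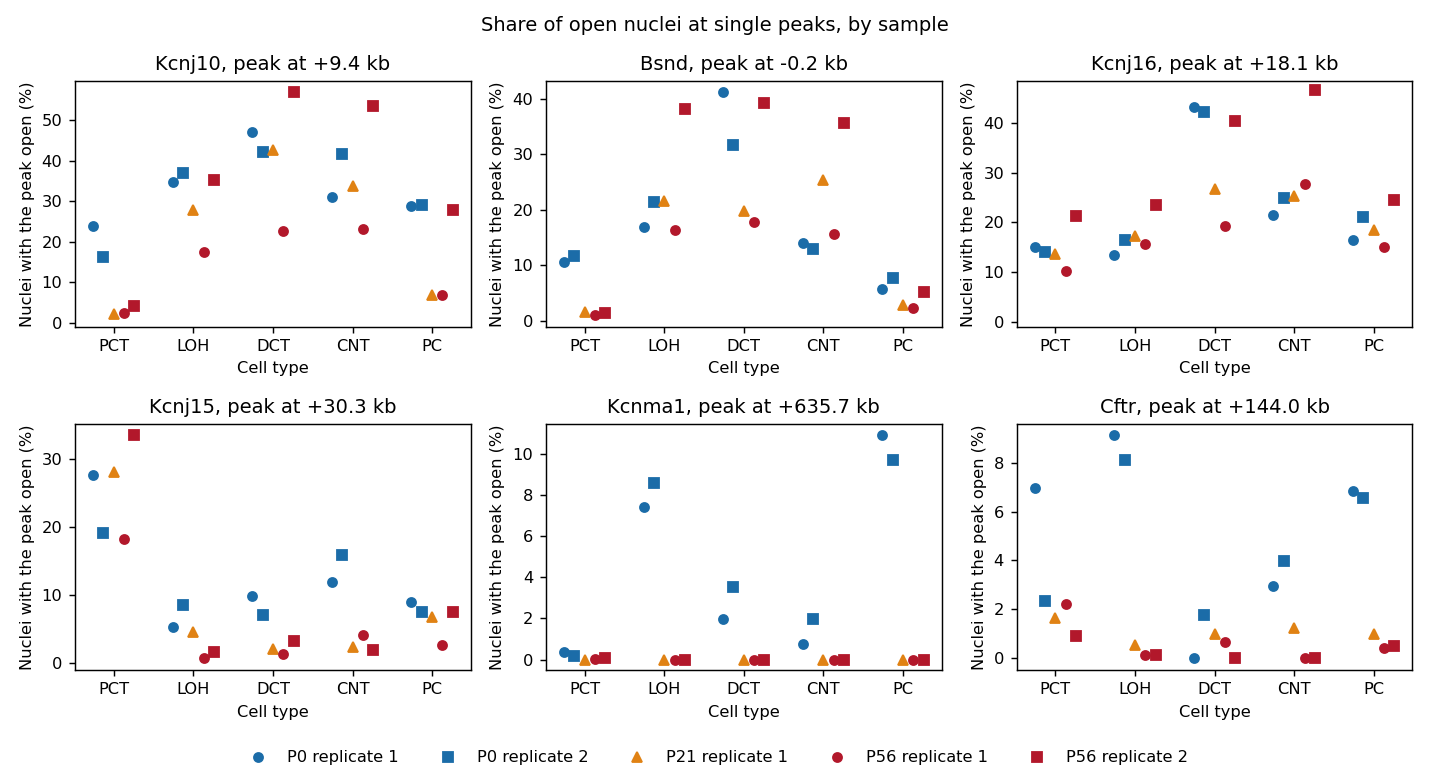
Percentage of nuclei with a single peak open, one point per sample (2 P0, 1 P21, 2 P56), in PCT, LOH, DCT, CNT and PC for 6 peaks. The Kcnj10 peak at +9.4 kb drops in PCT from 23.9% and 16.2% at P0 to 2.06% to 4.18% in adult, while DCT holds 22.5% to 56.9%, and the Kcnma1 peak at +635.7 kb is at 0 in all adult samples in LOH and PC.

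To ask whether the stage difference itself differed between segments, the difference in LOH minus that in PCT, and that in PCT minus that in CNT, were tested with edgeR with the sample as a block. These tests were chosen after the values of the single segments had been seen. Between LOH and PCT 7 of the 8 genes differed (34.5% of all genes), and between PCT and CNT 6 of 8 (18.2%). Bsnd differed most in both, by 3.53 (SE 0.20, adjusted p = 6.5e-07) and -3.75 (SE 0.25, adjusted p = 3.1e-17). Kcnj10 came next between LOH and PCT, with 2.06 (SE 0.17, adjusted p = 5.8e-06), and Kcnj15 (2.28, SE 0.30, adjusted p = 5.9e-08) and Kcnj10 (-2.13, SE 0.17, adjusted p = 2.3e-14) between PCT and CNT. Kcnq1 did not pass between LOH and PCT (-0.06, SE 0.11, adjusted p = 0.72), nor did Kcnj16 (-0.48, SE 0.19, adjusted p = 0.067) and Cftr (0.78, SE 0.34, adjusted p = 0.1) between PCT and CNT. The difference of Kcnj1 was lost in both without P0 replicate 1, that of Kcnj15 between LOH and PCT without either P0 or either P56 sample, and that of Kcnq1 between PCT and CNT without either P0 sample or P56 replicate 2.

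Several channel genes of the tubule also rose in clusters outside the tubule. In NP Kcnj15 rose by 1.79 on the log2 scale (SE 0.28, adjusted p = 3e-07), from 16.9 and 13.2 CPM to 60.5, 42.6 and 67.8, Kcnj16 by 2.02 (SE 0.29, adjusted p = 2.7e-08) and Bsnd by 1.63 (SE 0.26, adjusted p = 5.4e-07). In Stroma 1 Kcnj16 rose by 2.91 (SE 0.39, adjusted p = 8.6e-06), from 4.71 and 5.90 to 51.0, 23.5 and 52.2, and Kcnj15, Kcnj1 and Bsnd by 2.43, 2.20 and 1.92. Kcnj15 had 11.8 and 12.4 there at P0 and 156, 30.3 and 48.4 in adult, P21 standing apart, and without P21 it rose by 1.67 (adjusted p = 0.0015). Kcnj1, Kcnj15 and Kcnj16 rose in Stroma 2 by 1.95, 1.61 and 1.84, Kcnj15 and Kcnj16 in Podo by 2.62 and 1.78, and Kcnj1 in Endo by 2.14, while Bsnd fell in Podo by 1.33. Of these, the calls of Kcnj1 in Stroma 1, Bsnd in Stroma 1 and both Kcnj16 and Bsnd in Podo were lost without either P0 sample, Bsnd in Stroma 1 and Kcnj16 in Podo also without P56 replicate 2, Bsnd in Podo also without P21 or P56 replicate 1, and Kcnj1 in Endo and Kcnj16 in Stroma 2 without P0 replicate 1. With DESeq2 the calls of Kcnj16 and Bsnd in Podo were lost, after thinning that of Kcnj15 in Stroma 2, and with equal numbers of nuclei that of Kcnj16 in Stroma 2. Some gene calls could not be tested after thinning, so a call not listed as lost did not necessarily hold under it. Open calls were few in adult, as for Bsnd in Podo (1, 5 and 5) and in Stroma 1 (6, 4 and 16), and Kcnj1 in Stroma 1 (8, 7 and 13).

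Markers of tubule cells moved in the same clusters. In NP all 5 of the 13 tubule markers that could be tested rose, among them Slc12a3 of DCT by 2.23 (adjusted p = 6.4e-14) and Umod of LOH by 1.8 (adjusted p = 3.2e-07), and the summed level of the 13 went from 119 CPM in both P0 samples to between 272 and 350. In Podo 2 of 4 rose (99.7 to 119 at P0, 169 to 276 in adult), in Endo 2 of 6 (127 to 129, then 177 to 221), in Stroma 1 4 rose and 1 fell of 5 (150 to 159, then 219 to 391), and in Stroma 2 3 rose and 1 fell of 6 (125 to 132, then 148 to 248). None of the 13 was at 0 in all samples of these clusters. Inside the tubule, Slc12a3 rose by 2.10 in LOH and 2.67 in CNT, and Umod by 2.97 in CNT (adjusted p = 0.0003), beside the rises of Kcnj1 and Bsnd there. The marker of CNT itself, Trpv5, rose in CNT by 1.51 (adjusted p = 0.00011), and Aqp2 of PC by 0.91 (adjusted p = 0.026). Slc12a1 of LOH did not pass in CNT (0.72, adjusted p = 0.077). In LOH, however, Pvalb of DCT and Trpv5 of CNT fell by 1.8 (adjusted p = 0.010) and 1.83 (adjusted p = 0.0091), while the LOH markers Umod and Slc12a1 rose by 2.52 and 2.08. Over all 13 markers the summed level in LOH was 228 to 247 at P0 and 663 to 814 in adult, and in CNT 183 to 198 and 499 to 650, with 3 rising and 2 falling of 9 tested in LOH and 4 rising of 8 in CNT. In PC 6 of 9 rose, with summed levels of 169 to 178 at P0 and 277 to 436 in adult, beside the rises of Kcnj1 and Kcnj16 there. In PCT, where Bsnd and Kcnj10 fell, 5 rose and 2 fell of 13 (408 to 417, then 628 to 681). Those that fell, Atp6v1g3 by 1.64 (adjusted p = 0.032) and Atp6v0d2 by 0.84 (adjusted p = 0.0066), are markers of IC. Markers of other distal segments rose, namely Fxyd4 of PC by 2.50 (adjusted p = 0.0019), Slc12a3 by 1.05 (adjusted p = 0.0012) and Umod by 0.90 (adjusted p = 0.013). The PCT markers Slc5a2 and Slc34a1 rose by 1.71 (adjusted p = 0.00039) and 0.82 (adjusted p = 0.0013). In PST 2 of 9 rose (279 to 294, then 429 to 574) and in DCT 2 rose and 1 fell of 6 (495 to 553, then 867 to 1017). The share of all genes called is not given for Podo, Endo, both stromal clusters, PC, PST and DCT. The marker counts there are therefore not read as more than the usual rate of change. The part of the markers in the results was not tested.

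The genes most like each member over 26 points (13 cell types at P0 and in adult, log2 of CPM plus 1) were sought among 17501 protein-coding genes that share no peak with it, as a description without a test. These points share libraries and depth. Bsnd was most like the kallikrein genes Klk1b5 (Pearson r = 0.942) and Klk1b24 (0.911). Kcnj15 was most like Pdzk1 (0.931), which encodes a scaffold protein of the proximal brush border, A1cf (0.902) and Cda (0.888). Kcnj1 and Kcnj10 shared the nearest gene, the amino acid transporter gene Slc1a5 (0.888 and 0.902). Kcnj16 was nearest to Paqr5 (0.929), Cftr to Paqr9 (0.932), Kcnma1 to Pdzrn3 (0.892) and Kcnq1 to Rassf9 (0.854). Among the members Kcnj1 and Kcnj10 (0.81) and Kcnj10 and Bsnd (0.79) were the most alike, and Kcnj1 and Kcnma1 the least (-0.43).

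For context, other channel genes were counted over a list. Of 30 other potassium channel genes, 14 of 244 tests over cell types were higher in adult and 99 at P0 (11.1% and 14.2% of tests over all genes, median log2 fold change of the list -0.67), with 2 and 19 of 28 in LOH (all genes 22.8% and 29.3%) and 0 and 15 of 23 in CNT (9.74% and 15.3%). Of 19 other chloride channel and exchanger genes, 38 of 220 were higher in adult and 21 at P0, against the same 11.1% and 14.2% (median 0.07). Kcnmb2, an accessory subunit of the BK channel, was higher at P0 in 10 cell types, as in PC, where it fell from 42.9 and 37.9 CPM to 12.9, 10.5 and 10.6 (-1.91, SE 0.24, adjusted p = 6.4e-05). Kcnk1 rose in PST from 52.1 and 54.3 to 218, 204 and 215 (2.06, SE 0.15, adjusted p = 0.00027). Ano1, which encodes a calcium-activated chloride channel, fell in LOH from 103 and 94.9 to 16, 7.40 and 14.4 (-2.93, SE 0.23, adjusted p = 1.6e-05) and was higher at P0 in 10 cell types. Kcnq5, Kcnq3 and Kcnn4 were also higher at P0 wherever they passed, in 6, 7 and 5 cell types, whereas Lrrc8a and Clic4 were higher in adult in 8 and 6, and Kcnk5 in 4 with 2 at P0.

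The central 300 bases of each peak were searched on both strands for 8 motifs, as a description. TFAP2 (GCCNNNGGC) was found in 26 of the 274 member peaks (9.49%) and in 8.97% of the 300693 peaks searched. In member peaks led in adult by LOH, DCT, CNT, PC or IC, with a thinned share of at least 0.5%, the letters were found in 8 of 43 (18.6%), against 12.7% of all such peaks, and in those led by PCT or PST in 3 of 37 (8.11%) against 9.54%. In peaks led by another cell type they were found in 1 of 26 (3.85%) against 11.9%, and with counts this small nothing is read from these shares. FOX (TGTTTAC) was found in 13 member peaks (4.74%, all peaks 5.09%), HNF1 (TTAATNATT) in 6 (2.19%, all 2.45%), POU (ATGCAAAT) in 5 (1.82%, all 1.73%), ESRR (TCAAGGTCA) and ETS (ACCGGAAGT) in 2 each (0.730%, all 0.854% and 0.169%), HNF4 (CAAAGTCCA) in 1 (0.365%, all 0.802%) and GRHL (AACCGGTT) in none (all 0.116%). In the printed stretches the TFAP2 letters lie in the Kcnj10 peak at +9.4 kb, open in DCT and CNT, and in both Kcnma1 peaks, of which that at +635.7 kb holds them outside the central 300 bases and is not among the 26. The FOX letters lie in the Kcnj16 peak at +25.9 kb.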

How the data were processed

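Nuclei of mouse kidney were analysed in 5 snATAC-seq samples (2 P0, 1 P21, 2 P56). Per the methods and the submitters' processing notes, the authors aligned reads to mm10 with Cell Ranger ATAC 1.1.0, filtered barcodes by fragments, mitochondrial share and promoter ratio, corrected batches with Harmony, clustered with SnapATAC and called peaks per cell type with MACS 2 on pooled nuclei before merging them. The matrix deposited by the authors is binarized, so its counts are open calls, not scaled for depth (89197 stored zeros were dropped). Cell types and samples came from the deposited metadata. The scRNA-seq tables at hand (Cell Ranger 3.1.0, Seurat 3.0) list stage, cluster names and UMAP coordinates and were not used, nor were the UMAP coordinates of nuclei, and scRNA-seq expression is not analysed here. Doublets were not searched for, and the bulk ATAC-seq is not analysed here.

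Open calls were summed per sample, cell type and peak or gene window (sums of at least 20 nuclei) and tested in R 4.3.3 with edgeR 4.0.16 (filterByExpr at a count of 10 and total of 15, TMM, glmQLFTest) over all features, on limma 3.58.1, with DESeq2 1.42.0 as an alternative. The study used Fisher's exact test over nuclei, which treats nuclei as replicates. Tables and figures were made with numpy 2.4.6, pandas 2.3.3, matplotlib 3.10.9 and scipy 1.17.1 under Python 3.11.15. The fit was tested on simulated data with known changes. Members and lists were chosen with earlier results of these data known. Named peaks per gene were the most open start, the most open adult peak, the one with the largest adult gap between cell types, and up to 3 with the smallest adjusted p in the stage test; other peaks (Kcnma1 at +491.6, +512.0 and +520.0 kb, Kcnq1 at +18.2 and +302.1 kb) were named after their values were seen. Other channel genes were named where they passed, up to 10 by adjusted p. One peak and one gene that these rules name are not reported here. Standard errors came from the test statistic. Peaks on other contigs were not searched for motifs. Intervals and floors cover counting error only.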

Additional observations from a re-analysis of the deposited data

Results flagged for a closer look

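For 13 of 16 comparisons, the log2 stage difference (adult minus P0) of a channel gene differed between tubule segments by edgeR with the sample as a block, and these are given as values. In LOH minus PCT the differences were 3.53 for Bsnd, 2.06 for Kcnj10, 1.47 for Kcnj1, 0.80 for Kcnj16, -1.37 for Kcnma1, -1.40 for Kcnj15 and -1.76 for Cftr. In PCT minus CNT they were -3.75 for Bsnd, -2.13 for Kcnj10, -1.61 for Kcnj1, -0.43 for Kcnq1, 1.41 for Kcnma1 and 2.28 for Kcnj15. Both sets contain the same PCT sums, so they are not independent of each other. Between LOH and PCT 34.5% of all genes differed, so a difference between these segments was common, and between PCT and CNT 18.2% did. Groups of 2 and 3 samples were too small to look for single outlying samples.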

How the results depend on the processing

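No call of a gene (46) or named peak (78) changed direction under any alternative run. Of the 46 gene calls, 21 held under every alternative that gave a value. Of the main counts of 28 adult and 18 P0 gene calls, thinning gave 9 and 12, and 16 of the 46 could not be tested after it. Leaving out 1 sample gave 17 to 37 adult and 8 to 20 P0 gene calls, lowest without P0 replicate 1, and 37 to 115 adult and 28 to 107 P0 peak calls (106 without P21, 107 without P56 replicate 1). Peak calls in adult and at P0 (95 and 69) became 63 and 45 with DESeq2, 12 and 4 after thinning and 51 and 27 with equal nuclei, each of which tests fewer counts or another model, and without the filter 122 and 183. The leading cell type was kept by 5 to 7 of 8 genes at P0 when 1 sample was left out (5 without P0 replicate 2) and by 4 to 8 in adult (4 without P56 replicate 2). The segment differences, called for 7 and 6 genes, were called for 5 to 7 and 4 to 7, and of the 13 calls 9 to 13 held without 1 sample. With the replicate block, 27 and 16 gene calls and 89 and 66 peak calls were made. The replicate numbers of P0 and P56 share only a number, and deviations of same-numbered samples correlated at 0.015 to 0.186 across cell types. The block ended 3 gene calls, Bsnd and Kcnj16 in Podo and Kcnma1 in Stroma 1.

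Depth limits what rare clusters show: sums of 39 to 57 nuclei in single samples of DCT, IC, Podo, Immune and NP left few peaks to test. Only 2 P0 samples were available, and calls that rest on either of them are named in the text. In 9 of the 13 clusters, named with the gene calls, depth and stage cannot be told apart. The paper describes a smaller volume of lysis buffer for P0 kidneys than for older ones. In all 13 clusters this step cannot be told apart from stage either.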
